A study of Homo sapiens with 24 samples.

Results

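Small nucleolar RNAs (snoRNAs) formed the subject of these results: of 1549 genes typed as snoRNA in the deposited gene table, 282 reached an RPKM (reads per kilobase of gene, scaled to library size) of at least 0.5 in at least 2 of 24 libraries and were retained. Another 380 had reads but stayed below that level and 887 were at 0 in every library. The members were thus chosen by their measured RPKM in these same libraries, so their presence in a group is part of the choice. They comprised 120 genes named SNORD (the C/D class), 91 named SNORA (the H/ACA class), 17 named SCARNA (Cajal-body RNAs) and 54 with other symbols, of which 45 were copies of snoU13. The second-highest RPKM, which decides membership, was 0.502 in a snoU13 copy, 0.507 in SNORA42 and 0.507 in SNORA70B just inside the threshold. It was 0.499 in another snoU13 copy, 0.494 in SNORD115-20 and 0.483 in SNORD113 just outside.

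Total RNA came from 3 human hepatocellular carcinoma lines, HepG2, SNU398 and SNU475, each labelled wildtype. Each line received DPBS (phosphate-buffered saline, the vehicle), decitabine (5-Aza-CdR, which inhibits DNA methyltransferases) at 100 nM daily, GSK-126 at 500 nM daily, or the 2 agents together at these doses. GSK-126 blocks EZH2, which methylates histone H3. Dosing lasted 3 days, and cells were harvested on day 14 (HepG2, SNU398) or day 21 (SNU475), so line and harvest day cannot be told apart for SNU475. Each of the 12 groups held 2 libraries, lettered A and B. The labels do not say that A and B were separate cultures, so the p-values below measure only the spread between these libraries, which may be technical. In bulk RNA, fewer cells of a type and less RNA per cell cannot be told apart.

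snoRNAs are short nuclear RNAs that guide the chemical modification of other RNAs. C/D snoRNAs carry a C box and a D box, bind fibrillarin and direct methylation of ribose, while H/ACA snoRNAs end in an ACA box, bind dyskerin and direct the conversion of uridine to pseudouridine. Their targets are mostly ribosomal RNA, and Cajal-body RNAs (scaRNAs) act on spliceosomal RNAs. A few snoRNAs act in the cutting of the ribosomal RNA precursor instead. Most human snoRNAs are cut out of introns of host genes, many of them non-coding or encoding parts of the translation machinery, and 2 imprinted clusters on chromosomes 14 and 15 hold large arrays of C/D copies whose targets are mostly unknown.

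The sequences below are those of members on which the results turn: copies from both imprinted clusters, the most abundant member of each main class, and members with large changes. They were read from GENCODE v29 on GRCh38, on the strand given, 5′ to 3′. Capitals mark the C box (TGATGA), the D box (CTGA) or the ACA box where a search found them near the ends. From the chromosome 14 cluster, SNORD114-21 lies at chr14:100981975-100982046 (+) and SNORD114-3 at chr14:100953349-100953423 (+). From the chromosome 15 cluster, SNORD108 lies at chr15:24986925-24986995 (+), SNORD116-19 at chr15:25086527-25086618 (+) and SNORD116-27 at chr15:25101575-25101666 (+). SNORD17 lies at chr20:17962710-17962946 (-) and SNORA73B at chr1:28508559-28508762 (+). SNORA12 lies at chr10:100237156-100237302 (-), SNORA53 at chr12:98599635-98599883 (+), the SNORA40 copy ENSG00000212579 at chr6:35651818-35651945 (+) and SCARNA17 at chr18:49814133-49814276 (+).
SNORD114-21: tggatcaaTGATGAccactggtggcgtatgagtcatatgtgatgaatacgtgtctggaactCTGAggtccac
SNORD114-3: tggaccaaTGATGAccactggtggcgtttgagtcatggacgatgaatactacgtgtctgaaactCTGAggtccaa
SNORD108: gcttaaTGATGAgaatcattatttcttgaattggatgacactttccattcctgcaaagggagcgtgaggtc
SNORD116-19: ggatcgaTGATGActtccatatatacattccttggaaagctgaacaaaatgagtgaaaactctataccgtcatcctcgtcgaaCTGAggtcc
SNORD116-27: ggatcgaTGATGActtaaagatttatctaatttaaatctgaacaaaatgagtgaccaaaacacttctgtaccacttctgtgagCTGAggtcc
SNORD17: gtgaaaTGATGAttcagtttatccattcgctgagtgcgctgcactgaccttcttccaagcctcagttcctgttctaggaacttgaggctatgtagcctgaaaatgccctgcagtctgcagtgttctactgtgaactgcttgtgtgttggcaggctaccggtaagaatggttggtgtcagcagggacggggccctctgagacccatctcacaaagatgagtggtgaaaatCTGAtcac
SNORA73B: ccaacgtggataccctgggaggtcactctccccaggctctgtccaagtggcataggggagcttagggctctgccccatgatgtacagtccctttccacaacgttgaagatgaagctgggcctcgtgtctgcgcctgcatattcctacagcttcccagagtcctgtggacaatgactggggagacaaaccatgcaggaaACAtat
SNORA12: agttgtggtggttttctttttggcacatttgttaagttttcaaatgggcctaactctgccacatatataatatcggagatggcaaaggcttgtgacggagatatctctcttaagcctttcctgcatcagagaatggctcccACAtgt
SNORA53: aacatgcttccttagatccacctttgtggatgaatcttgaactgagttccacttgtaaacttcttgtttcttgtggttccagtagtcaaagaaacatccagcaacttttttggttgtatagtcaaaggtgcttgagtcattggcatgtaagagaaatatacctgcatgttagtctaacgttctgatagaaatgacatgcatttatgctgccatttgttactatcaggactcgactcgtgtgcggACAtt
SNORA40 ENSG00000212579: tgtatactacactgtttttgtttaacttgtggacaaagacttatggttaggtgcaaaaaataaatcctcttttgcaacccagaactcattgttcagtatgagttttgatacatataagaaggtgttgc
SCARNA17: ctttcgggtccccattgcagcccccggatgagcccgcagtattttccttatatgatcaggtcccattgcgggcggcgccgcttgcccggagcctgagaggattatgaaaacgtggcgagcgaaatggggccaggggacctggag
The class names and the boxes went together. Both C and D boxes were found in 65.22% of the 115 SNORD members with a sequence and in 0.0% of the 90 SNORA members. The ACA box was found in 81.11% of SNORA and 5.22% of SNORD members. In 35116 promoter windows of 85 bases, used as unrelated sequence, the shares were 0.01% for both C and D boxes and 4.07% for ACA. SNORD108 had the C box only, and the SNORA40 copy and SCARNA17 had none of the 3 in the searched windows, which says only that these letters were not there. SNORD114-21 and SNORD114-3 were 85.3% identical (11 edits) and SNORD116-19 and SNORD116-27 71.7% (26 edits). Among 24 SNORD116 members the identity of pairs ran from 54.2% to 100.0% with a median of 82.1%, so reads of single SNORD116 copies are uncertain, and how multiply mapped reads were treated is not given in the sources used here.

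Depth was 32.6 to 60.37 M reads (M, mega) behind the RPKM unit, of which 20.42 to 38.4 M reads lay in genes, and the HepG2 combination libraries were the shallowest. All RPKM values checked corresponded to whole reads within 0.15 reads, so reads are quoted below. Among hepatocyte markers, ALB (albumin) ran from 2048.2 to 5536.7 scaled RPKM in HepG2 and HNF4A, a hepatocyte transcription factor, from 66.4 to 77.4. SNU398 and SNU475 held little of them, with ALB at 0.34 to 22.1 and 0.225 to 24.1 and HNF4A at no more than 0.432. APOA1, APOB, TTR, FGB and AFP were likewise far lower in both lines than in HepG2. GPC3, a liver cancer gene, was not, at 10.8 to 17.1 in SNU398 beside 21.5 to 34.4 in HepG2, with at most 0.24 in SNU475. VIM, a mesenchymal filament gene, was 323 to 430 in SNU398 and 173 to 321 in SNU475 against at most 2.99 in HepG2. The fibroblast genes COL1A1 and COL1A2 reached only 4.62 and 0.716 in SNU398, 13.1 and 3.55 in SNU475, and 0.595 and 0.0204 in HepG2. PECAM1, an endothelial gene, was at 0 throughout.

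An RPKM of 0.5 stood for 1 to 10 reads of a member (median 3), so many members rested on little. Only 101 members averaged at least 10 reads over all libraries (42 SNORD, 46 SNORA, 9 SCARNA and 4 others), 24 averaged at least 100 and 143 fewer than 5. The threshold was reached in all 24 libraries by 90 members (41 SNORD, 37 SNORA, 8 SCARNA and 4 others), in exactly 2 libraries by 42, and in a single line by 36, of which 24 were HepG2 only. The 8 members that passed in a single group all passed in HepG2 decitabine and had to be higher there. The snoU13 copies had a median mean of 1.25 reads and none exceeded a mean of 10.5. A C/D gene had a median length of 81 bases and an H/ACA gene 134, and 37 members were shorter than the 75-base read.

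Position in a host gene went with which snoRNA genes had reads. Of 385 snoRNA genes within an intron of a gene on the same strand, 65 (16.9%) were at 0 everywhere and 189 were members. Of 394 with no such host, 297 (75.4%) were at 0 and 17 were members, and of 119 overlapping a host exon, 85 (71.4%) were at 0 and 23 were members. The placement comes from GENCODE v29, and snoRNA genes without an entry there, 53 members among them, are left out of these shares. Reads of an unspliced host and of the mature snoRNA cannot be told apart in these values.

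A handful of members held most snoRNA reads. Mean unscaled RPKM over 24 libraries was 668 for SNORA73B (U17b, which acts in processing of the precursor of 18S ribosomal RNA), 464 for SNORD17 and 203 for SNORD13, which guides acetylation of 18S ribosomal RNA. The next were SCARNA13 at 147, SCARNA18 (the copy ENSG00000252139, used throughout) at 109, SCARNA7 at 102, SCARNA21 at 67.0, SNORD104 at 60.0, SNORA71A at 59.5 and SCARNA17 at 59.2. SNORD17 alone gave 30.7% to 71.7% of the reads of SNORD members, and SNORA73B 53.8% to 72.4% of those of SNORA members. Other snoRNAs with roles in precursor processing were listed near or at 0: SNORD118 (U8) and the U14 copies SNORD14B, SNORD14C and SNORD14D had no read in any library, and SNORD22 had 0 or 1. Cells in general use these RNAs, and whether the counting dropped their reads was not tested, so the zeros are not read as low expression. The U14 copies SNORD14A and SNORD14E had 8 to 80 and 4 to 40 reads.

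The ratio of H/ACA to C/D reads was lower in every treated HepG2 library than in both DPBS libraries. Summed SNORA reads in HepG2 were 379 and 326 RPM (reads per 1 M reads of the library) in the DPBS libraries A and B, 248 and 218 with decitabine, 360 and 316 with GSK-126, and 151 and 145 with the combination. Summed SNORD reads were 353 and 309, 328 and 331, 434 and 422, and 299 and 301 in the same order. The combination libraries thus lay below all other HepG2 libraries in SNORA reads, while their SNORD reads lay just below those of DPBS. The SNORA mean of the combination was 0.42 of that of DPBS and the SNORD mean 0.906. The ratio of SNORA to SNORD reads was 1.07 and 1.05 with DPBS, 0.756 and 0.658 with decitabine, 0.829 and 0.748 with GSK-126, and 0.506 and 0.48 with the combination. No treated library overlapped the DPBS libraries. These sums were not tested.

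Without SNORA73B and SNORD17 the span of the HepG2 ratio was narrower, at 1.06 and 1.08 with DPBS, 0.869 and 0.866 with decitabine, 0.901 and 0.843 with GSK-126, and 0.712 and 0.705 with the combination. Over all members, SNORA73B and SNORD17 included, the ratio in SNU398 was 1.9 and 1.77 with DPBS, 1.69 and 1.66 with decitabine, 1.73 and 1.92 with GSK-126, and 2.01 and 1.92 with the combination, so only the decitabine libraries lay wholly below DPBS. In SNU475 it was 2.23 and 2.15, 1.83 and 1.84, 2.32 and 2.22, and 2.02 and 2.09, with decitabine and combination libraries below DPBS. Without SNORA73B and SNORD17 the SNU475 ratio was 1.36 and 1.29 with DPBS, 1.17 and 1.41 with decitabine and 1.25 and 1.31 with the combination, and these groups overlapped. In SNU398 it was then 1.27 and 1.18 with DPBS and 1.1 and 1.11 with decitabine.

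Other short RNAs of HepG2 went in different directions. Summed snRNA reads in the combination were 0.337 of DPBS, RMRP (the RNA of RNase MRP) 0.475, RN7SL1 0.674 and RN7SK 0.739, whereas TERC, the H/ACA RNA of telomerase, stood at 1.09 and summed miRNA reads at 2.95. With GSK-126 in HepG2 snRNA reads were 0.581 and RMRP 0.699 of DPBS, while SNORA reads were 0.96 and SNORD reads 1.29. In SNU475 with GSK-126, where SNORA reads were 1.44 of DPBS, snRNA reads were 1.55. What part this has in the snoRNA values was not tested.

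**Figure D1:**
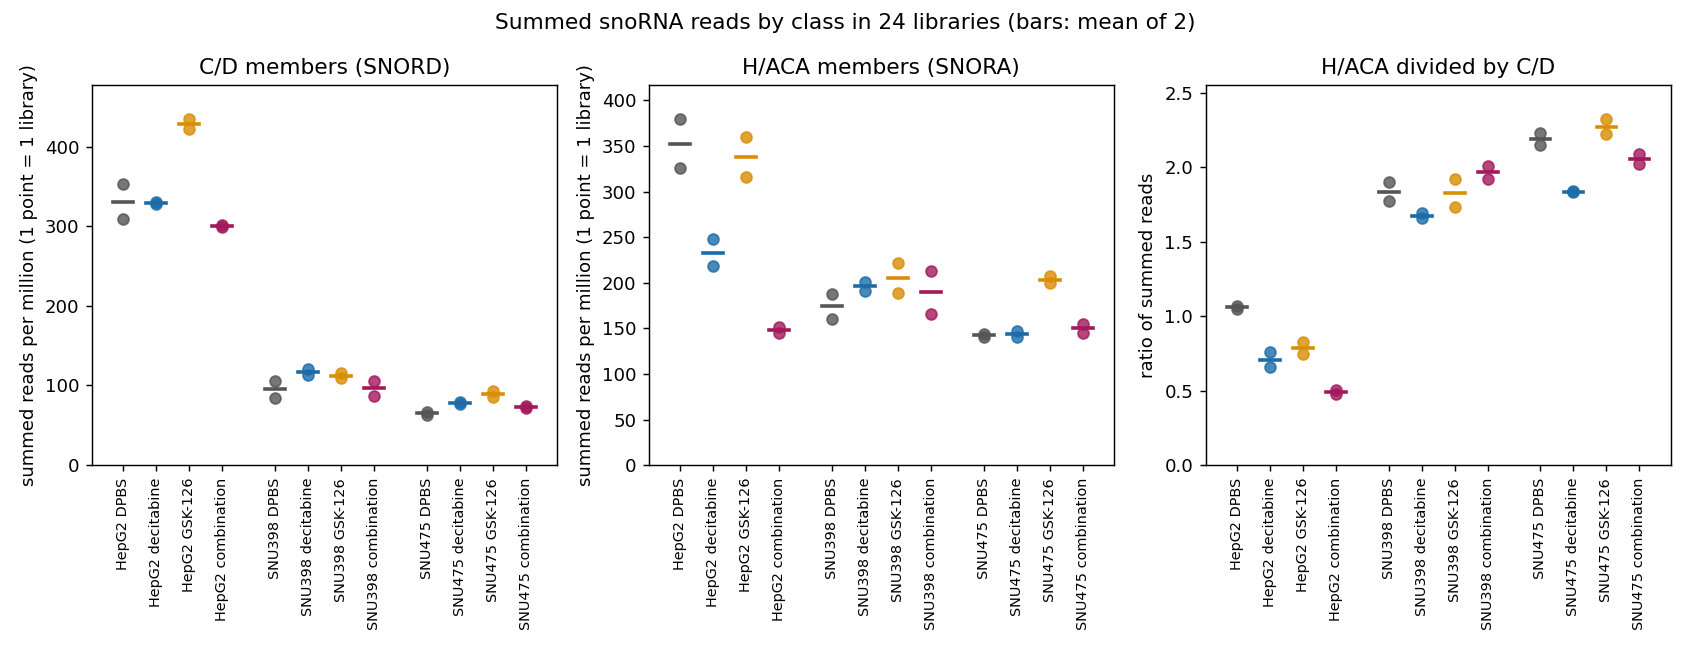
Summed RPM of the SNORD and SNORA members and their ratio in each library, by line and treatment. Points are single libraries and bars the mean of 2. In HepG2 the ratio goes from 1.07 and 1.05 with DPBS to 0.506 and 0.48 with the combination, while both other lines stay at 1.66 or above.

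Changes of single members were tested with limma on log2(scaled RPKM + 0.5), with p-values adjusted by Benjamini-Hochberg over the 19377 genes that passed the same level filter. A member was called at an adjusted p below 0.05, and log2 changes are given ± the standard error of the fit with 2 libraries a group. The pseudocount understates changes of low members. Because the 3 treatments of a line share their DPBS libraries, counts are given side by side and not compared with each other. For each comparison the share of all tested genes called in that direction follows the members' count.

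In HepG2 with decitabine the imprinted chromosome 14 copies rose, and 12 of 91 H/ACA members fell, a share of 13.2% that lies below that of all genes. The comparison called 44 members higher (35.9% of all genes) and 19 lower (18.3%), which is 15.6% and 6.74% of the members. Among SNORD 29 were higher (24.2%) and 1 lower, among SNORA 4 and 12, and among SCARNA 2 and 6. The 29 include all chromosome 14 copies, which reached the threshold mostly through HepG2 decitabine. Outside both imprinted clusters, 8 of 69 SNORD with a tested host were higher and 1 lower. Of the members averaging at least 10 reads, 4 of 42 SNORD were higher and 1 lower, against 2 and 11 of 46 SNORA. Their median log2 changes were 0.13 and -0.20, beside 0.07 over all genes. Under no scaling 27.1% of genes were higher and 23.7% lower (members 38 and 21), and under quantile normalization 24.3% and 28.2% (members 40 and 25).

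All 18 members of the chromosome 14 cluster of MEG3 and MEG8, maternally expressed non-coding RNAs, were called higher in HepG2 with decitabine. They lie between 101396256 and 101456497 on chromosome 14 of hg19 and comprise copies of SNORD112, SNORD113 and SNORD114. Their summed reads in HepG2 were 2 and 1 with DPBS, 154 and 153 with decitabine, 1 and 0 with GSK-126, and 75 and 103 with the combination. Nearly all HepG2 reads of the cluster were thus in the groups with decitabine, alone or combined, and 34 of its 52 genes in the table did not reach the threshold. Since these members reached the threshold mostly through HepG2 decitabine, the count of 18 is not evidence of its own.

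SNORD114-21, shown above, had 0 and 0 reads with DPBS, 37 and 39 with decitabine, 0 and 0 with GSK-126 and 28 and 37 with the combination. Its level with decitabine, 14.1 ± 0.37 scaled RPKM (SD, n = 2), was at least 14.2-fold above a floor of 3 reads per DPBS library, in RPM (adjusted p = 6.5e-10, limma). With the combination it was at least 16.0-fold above (adjusted p = 1.8e-10, limma). SNORD113-4 had 0 and 0, 17 and 18, 0 and 0, and 11 and 18 reads in the same order, at least 6.55-fold above the floor with decitabine (adjusted p = 8.2e-07, limma). SNORD114-3 had 1 and 0, 19 and 25, 1 and 0, and 15 and 12 reads, a log2 change of 3.72 ± 0.4 with decitabine (adjusted p = 1.6e-06, limma). For each of these copies the decitabine and combination libraries lay above all DPBS and GSK-126 libraries. These copies passed the level filter mostly through the same HepG2 groups, so the folds and p-values are not evidence of their own.

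The host transcripts, like the cluster, were higher with decitabine and with the combination than with DPBS. MEG3 measured 0.00444 and 0.0208 scaled RPKM with DPBS, 4.77 and 4.71 with decitabine, 0.0205 and 0.0172 with GSK-126 and 7.83 and 7.48 with the combination. MEG8 here is ENSG00000225746, so named in GENCODE v29, while the deposited table gives that symbol to its neighbour ENSG00000258399. It measured 0.00665 and 0.0153, 2.96 and 2.73, 0.0159 and 0.00916, and 3.25 and 3.12. Both hosts were called with decitabine, by 3.35 (adjusted p = 9.5e-17) and 2.71 (adjusted p = 4.3e-14) on the log2 scale. The combination libraries lay above the decitabine libraries in both hosts. The summed level of the cluster went the other way, at 3.51 and 3.43 RPM with decitabine and 2.3 and 2.99 with the combination.

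In SNU398 the same 18 members had 5 and 4 reads with DPBS, 16 and 19 with decitabine, 6 and 8 with GSK-126, and 20 and 21 with the combination. There 2 were called higher with decitabine and 4 with the combination, beside 23.4% and 28.9% of all genes. MEG8 rose by 0.51 and 0.69 on the log2 scale, and by 0.33 with GSK-126. In SNU475 the members had 0 to 3 reads in any library and none was called.

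**Figure D2:**
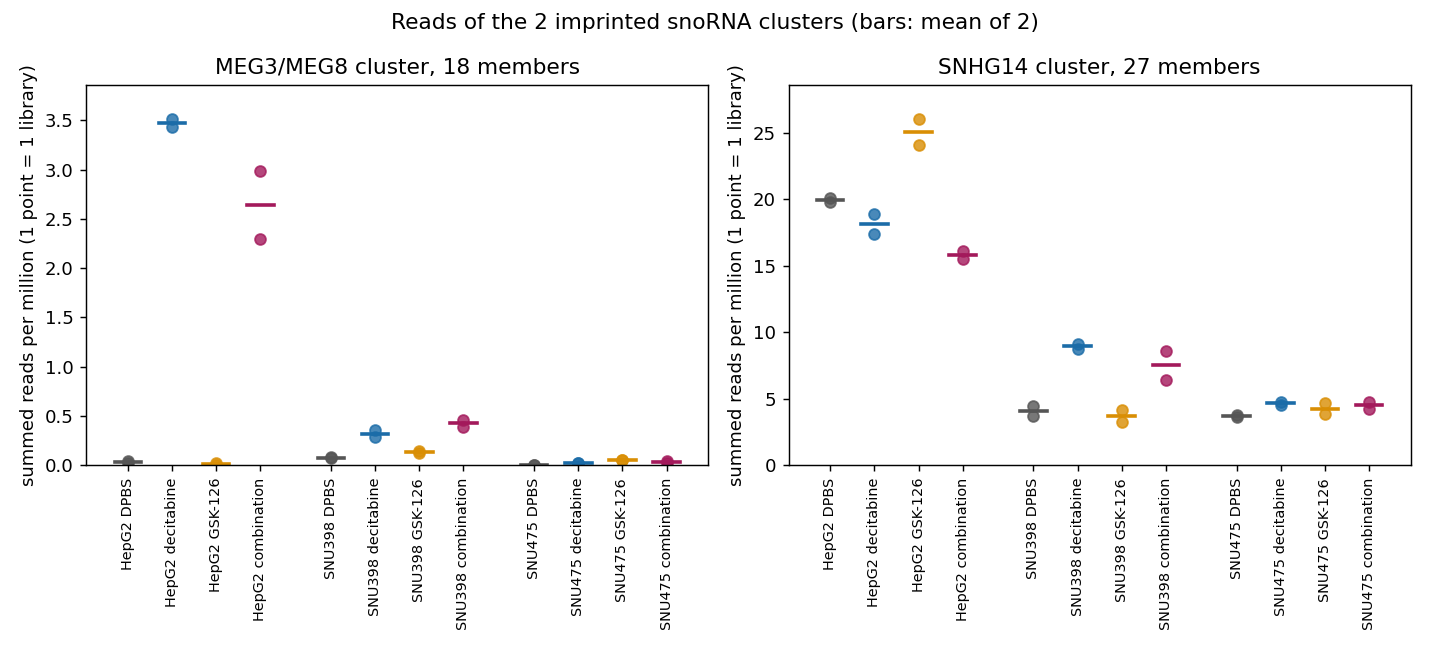
Summed RPM of the 18 members of the MEG3/MEG8 cluster (left) and the 27 members of the SNHG14 cluster (right), by line and treatment. Points are single libraries and bars the mean of 2. On the left HepG2 reaches 3.51 and 3.43 with decitabine from 0.0387 and 0.0209 with DPBS, and on the right SNU398 goes from 3.68 and 4.41 to 8.74 and 9.12.

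The chromosome 15 cluster of SNHG14, the paternally expressed host of the SNORD115 and SNORD116 arrays, was read in all 3 lines. Of 73 genes there, 27 were members: 23 SNORD116 copies, 3 SNORD115 copies and SNORD108. In SNU398 their summed level was 3.68 and 4.41 RPM with DPBS, 8.74 and 9.12 with decitabine, 3.28 and 4.13 with GSK-126 and 8.61 and 6.44 with the combination. The groups with decitabine lay above the others without overlap. Of the 23 SNORD116 copies, 9 were called higher with decitabine, 8 with the combination and none with GSK-126, and none was called lower. Of all genes, 23.4% were called higher with decitabine, 28.9% with the combination and 30.0% with GSK-126.

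SNORD116-19, the more read of the 2 SNORD116 copies shown above, had 9.21 and 7.97 scaled RPKM in SNU398 with DPBS, 22.1 and 20.0 with decitabine, 9.97 and 9.49 with GSK-126 and 17.5 and 17.8 with the combination. The log2 change was 1.25 ± 0.16 with decitabine (adjusted p = 2.4e-05, limma) and 1.0 ± 0.16 with the combination (adjusted p = 0.00013, limma). SNORD116-27 went from 5 and 5 reads with DPBS to 21 and 15 with decitabine, by 1.46 ± 0.19 (adjusted p = 1.9e-05, limma). The host SNHG14 rose in the same groups, from 0.724 and 0.721 scaled RPKM to 1.49 and 1.42 with decitabine (log2 change 0.68, adjusted p = 1.8e-09) and 1.22 and 1.32 with the combination.

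In SNU475 the cluster stood at 3.76 and 3.63 RPM with DPBS, 4.55 and 4.78 with decitabine, 3.81 and 4.64 with GSK-126 and 4.77 and 4.2 with the combination, so every treated library lay above DPBS. Of the 23 SNORD116 copies, 2 were called higher there with decitabine, 1 with GSK-126 and 3 with the combination, and none lower. These are smaller shares than the 24.2%, 21.5% and 25.3% of all genes called higher. SNORD116-15 was one of the 2, at a log2 change of 1.04 ± 0.41 (adjusted p = 0.044, limma). Its call was lost in 8 settings, among them leaving out either DPBS or either decitabine library, where the change ran from 0.90 to 1.19.

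In HepG2 the chromosome 15 cluster started higher, at 20.1 and 19.8 RPM with DPBS. It was 17.4 and 18.9 with decitabine, 26.0 and 24.1 with GSK-126 and 16.1 and 15.5 with the combination. Single members went different ways there. SNORD108, at the start of the cluster, rose with every treatment: its reads were 21 and 15 with DPBS, 45 and 52 with decitabine, 85 and 75 with GSK-126 and 32 and 22 with the combination. Its log2 changes were 1.63 ± 0.27, 2.22 ± 0.27 and 1.13 ± 0.27 (adjusted p = 0.00014, 5.6e-06 and 0.0019, limma), with all treated libraries above both DPBS libraries. SNORD116-27, with 46 and 43 reads with DPBS, fell to 12 and 11 with GSK-126 (log2 change -1.65 ± 0.19, adjusted p = 2.2e-06, limma) and to 8 and 10 with the combination, while SNHG14 did not pass the test with GSK-126 (log2 change 0.03). With the combination SNHG14 was lower by a log2 change of -0.15 (adjusted p = 0.0017) and 4 of the 23 SNORD116 copies were called lower, beside 25.9% of all genes.

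GSK-126 alone in HepG2 gave 19 members called higher (31.0% of all genes) and 21 lower (21.7%). The classes were spread over both directions, with 7 SNORD higher and 6 lower, 9 SNORA higher and 9 lower, and 2 SCARNA higher and 4 lower. Besides SNORD108, SNORA47 rose from 106 and 83 reads to 171 and 137 (log2 change 0.84 ± 0.2, adjusted p = 0.0026, limma), and SNORD17 rose from 1153.3 and 999 scaled RPKM to 1455.6 and 1426.4 (0.42 ± 0.07, adjusted p = 5.7e-05). SCARNA5 fell from 973 and 885 reads to 463 and 354 (log2 change -1.03 ± 0.12, adjusted p = 3e-06, limma). SCARNA5 also fell with decitabine, to 440 and 454 reads, and with the combination, to 203 and 254.

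In HepG2 with the combination 32 of the 91 H/ACA members were called lower (35.2%) and none higher. The comparison called 21 members higher (40.6% of all genes) and 59 lower (25.9%), which is 7.45% and 20.9% of the members. Of the 91 fitted SNORA changes 70 were negative. Apart from 3 of the 32 that were at 0 reads in a group, the lower calls ran from -3.43 to -0.46 on the log2 scale. Among SNORD 18 were higher, 12 of them in the MEG3 cluster, and 14 lower, and among SCARNA 3 were higher and 8 lower. Of the 46 SNORA members averaging at least 10 reads, 23 were lower and none higher, with a median log2 change of -0.53, beside 7 lower and 5 higher of 42 SNORD (median -0.14) and a median of 0.08 over all genes. Quantile normalization gave 30.9% of genes higher and 33.6% lower, and 18 and 65 members. These were also the shallowest libraries, and their part in the counts was not tested.

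SNORA12 was the clearest case with ample reads. Its reads were 220 and 154 with DPBS, 48 and 45 with decitabine, 76 and 55 with GSK-126 and 15 and 12 with the combination, so every treated library lay below both DPBS libraries and the combination below all others. The level fell from 28.1 ± 5.7 to 3.15 ± 0.66 scaled RPKM with the combination (SD, n = 2), a ratio of 0.112 and a log2 change of -2.96 ± 0.18 (adjusted p = 1.8e-09, limma). With decitabine the log2 change was -1.66 ± 0.18 (adjusted p = 2.2e-06, limma) and with GSK-126 -1.32 (adjusted p = 2e-05, limma). Its host CWF19L1 changed by -0.50 with the combination. In SNU398 SNORA12 was not called in any treatment. In SNU475 its combination lay above the product of the single effects, by 1.08 ± 0.26 on the log2 scale (adjusted p = 0.0045, limma).

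SNORA53 fell in HepG2 and rose in SNU475. In HepG2 its reads were 97 and 137 with DPBS, 55 and 39 with decitabine, 31 and 11 with GSK-126 and 1 and 8 with the combination. The log2 change was -3.43 ± 0.36 with the combination (adjusted p = 7.4e-07, limma) and -2.19 ± 0.36 with GSK-126 (adjusted p = 0.00011, limma). With decitabine it was -0.98 ± 0.36 (adjusted p = 0.034, limma), a call lost without DPBS replicate B or decitabine replicate B and in 3 other settings, where the change ran from -1.03 to -0.69. In SNU475 the reads were 28 and 31 with DPBS, 80 and 111 with decitabine, 141 and 121 with GSK-126 and 21 and 31 with the combination, so each single drug lay above DPBS and the combination beside it. The SNU475 log2 changes were 1.53 ± 0.36 with decitabine (adjusted p = 0.0025, limma), 1.85 ± 0.36 with GSK-126 (adjusted p = 0.00058, limma) and 0.03 with the combination (adjusted p = 0.96). In SNU398 it was not called. SNORA53 overlaps an exon of SLC25A3, a mitochondrial phosphate carrier, which had a log2 change of -0.07 in HepG2 with the combination (adjusted p = 0.1, limma).

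Several other H/ACA members fell in HepG2 by a similar size. SNORA20 had 34 and 32 reads with DPBS and 2 and 3 with the combination (log2 change -2.41 ± 0.16, adjusted p = 5.1e-09, limma), with 16 and 14 after decitabine. SNORA23 had 128 and 89 with DPBS and 14 and 9 with the combination (-2.37 ± 0.25, adjusted p = 6.7e-07). The SNORA40 copy ENSG00000212579 had 26 and 35 reads with DPBS, 23 and 14 with decitabine, 22 and 8 with GSK-126 and 0 and 0 with the combination, at least 6.89-fold lower than DPBS against a floor of 3 reads per library (adjusted p = 7.3e-07). In both other lines this copy had 13 to 52 reads in every library. SNORA79, far more abundant, had 903 and 761 reads with DPBS, 366 and 379 with decitabine, 711 and 520 with GSK-126 and 123 and 167 with the combination, and the combination change was -1.89 ± 0.18 (adjusted p = 1.7e-07).

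SNORA73B fell with its host. Its HepG2 levels were 1452 and 1210.1 scaled RPKM with DPBS, 947 and 792 with decitabine, 1351.4 and 1171.6 with GSK-126, and 508 and 462 with the combination. The log2 change was -0.61 ± 0.12 with decitabine (adjusted p = 0.00065, limma) and -1.45 ± 0.12 with the combination (adjusted p = 6.3e-08, limma). The host SNHG3, a non-coding RNA, changed by -0.60 and -1.24 (adjusted p = 7.7e-09 for the combination). Among C/D members, SNORD14A fell from 52 and 47 reads to 10 and 10 with the combination (-1.56 ± 0.27, adjusted p = 0.00011, limma). SNORD17 did not pass the test there (-0.06 ± 0.07, adjusted p = 0.46), but the value was 0.40 under quantile normalization and -0.16, past the threshold, without DPBS replicate B. SNORD13 did not pass it in any comparison with DPBS (standard error 0.29).

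Of the 17 Cajal-body members, 3 were called higher and 8 lower (47.1%) in HepG2 with the combination, beside 40.6% and 25.9% of all genes. The neighbours SCARNA17 and SCARNA18 were among the higher. SCARNA17 had 114 and 109 scaled RPKM in HepG2 with DPBS, 117 and 111 with decitabine, 130 and 120 with GSK-126 and 184 and 158 with the combination, and rose by 0.61 ± 0.09 with the combination (adjusted p = 2e-05, limma). SCARNA18, which lies next to SCARNA17 in the host SNHG22, rose by 0.78 ± 0.10. SCARNA13, which guides modification of spliceosomal RNAs, fell by 0.48 ± 0.08 on the log2 scale with decitabine.

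**Figure D3:**
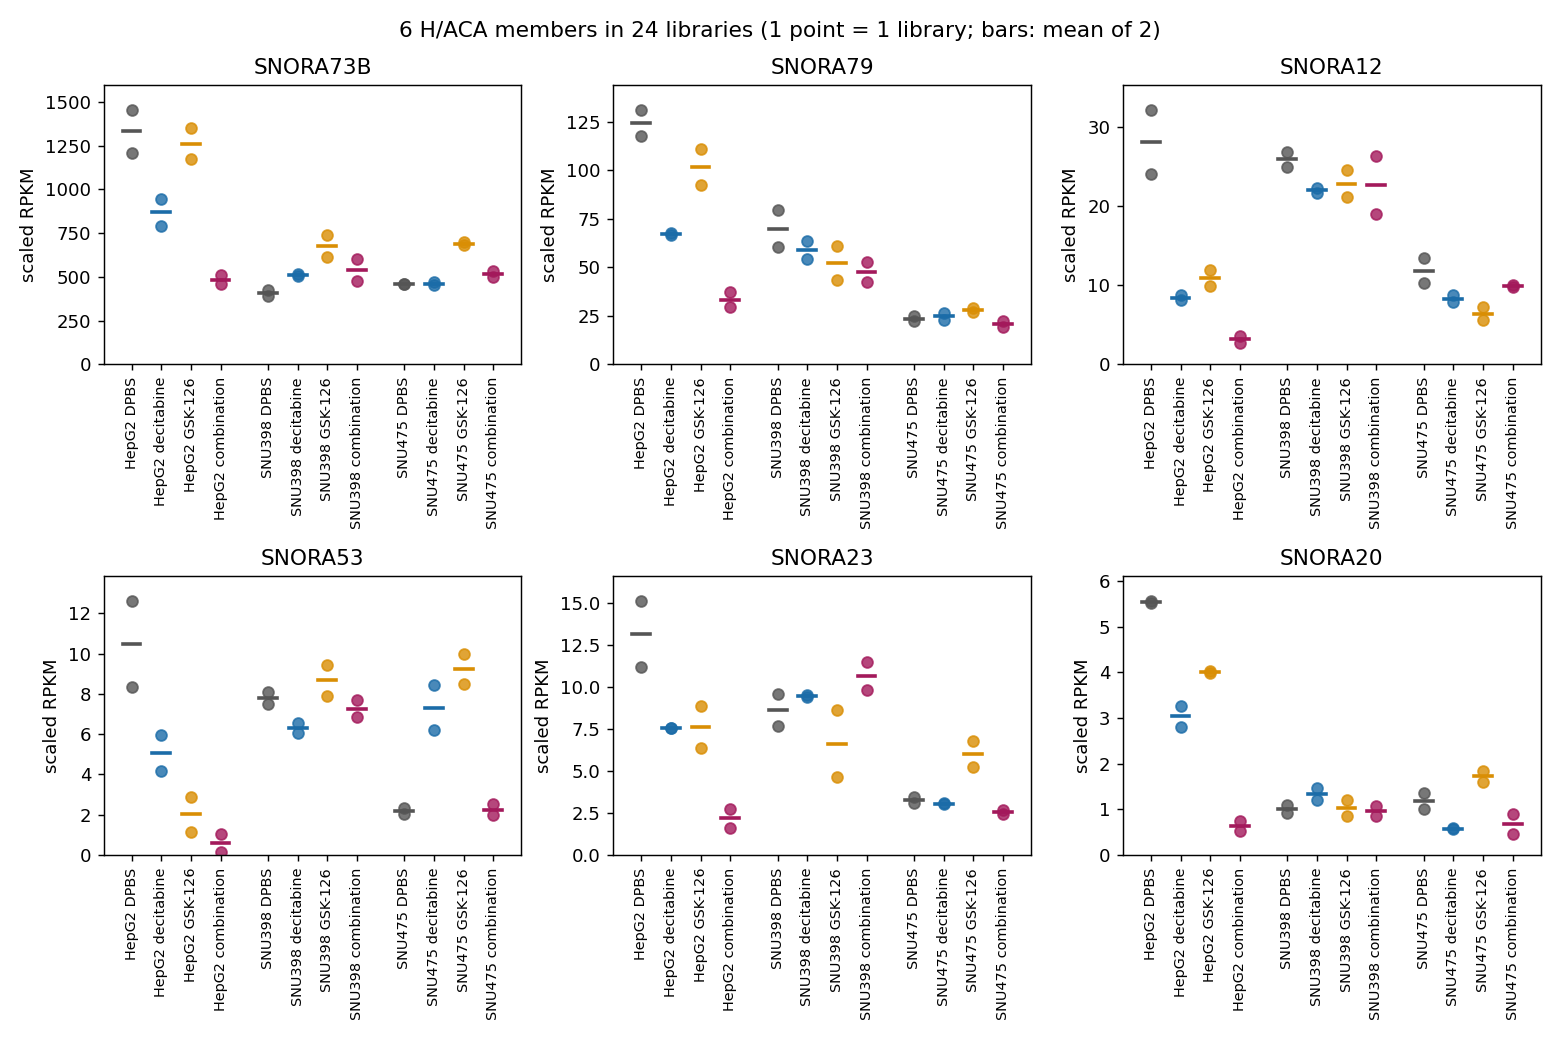
Scaled RPKM, on a linear axis, of 6 H/ACA members (SNORA73B, SNORA79, SNORA12, SNORA53, SNORA23 and SNORA20) by line and treatment. Points are single libraries and bars the mean of 2. In HepG2, SNORA12 reaches no more than 3.62 with the combination, where DPBS replicate A stands at 32.1.

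Set directly against decitabine, the HepG2 combination called 5 members higher (30.0% of all genes) and 73 lower (25.8%). Both main classes were called mostly lower, SNORD with 0 higher and 29 lower and SNORA with 1 higher and 27 lower. Of the 101 members averaging at least 10 reads, 4 were higher and 28 lower. Of the 29 SNORD called lower, 9 were chromosome 14 copies, which reached the threshold mostly through HepG2 decitabine and so had to be high in the reference group. Outside both imprinted clusters 16 of 75 SNORD were called lower. Among the 101 members the median log2 difference was -0.28 over the 42 SNORD and -0.53 over the 46 SNORA (-0.49 with members at 0 set to their bound), beside 0.02 over all genes. SNORA20 (-1.63 ± 0.16, adjusted p = 8.9e-07, limma) and SNORA53 (-2.45 ± 0.36, adjusted p = 4.2e-05, limma) were among the lowest, and SCARNA17 was higher by 0.58 ± 0.09 (adjusted p = 5.5e-05, limma).

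The interaction asks whether the combination differs from the product of the single effects on the scale of the fit. In HepG2 5 members were called above that product (25.1% of all genes) and 64 below (27.9%). SNORD had 0 above and 29 below, of which 9 were chromosome 14 copies chosen mostly through HepG2 decitabine, and SNORA 0 and 22, while SCARNA had 4 and 2. Of the members averaging at least 10 reads, 0 of 42 SNORD were above and 11 below, and 0 of 46 SNORA were above and 15 below. SNORD108 had an interaction of -2.71 ± 0.39 (adjusted p = 2.8e-05, limma), SNORA20 of -1.21 ± 0.23 and SNORA73B of -0.76 ± 0.17. SNORA12 did not pass the test of the interaction (0.02 ± 0.26), and neither did SNORA53 (-0.26 ± 0.51).

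In SNU398, decitabine called 21 members higher (23.4% of all genes) and 6 lower (15.4%). SNORD gave 13 of the higher calls, 9 of them SNORD116 copies, SCARNA 5 and SNORA 2. Among abundant members SNORD17 rose from 112 and 119 scaled RPKM to 172 and 180 (log2 change 0.61 ± 0.07, adjusted p = 3.8e-06, limma), and SCARNA7, which guides modification of U1 spliceosomal RNA, rose from 71.1 and 72.9 to 96.5 and 97.0 (0.42 ± 0.06). Quantile normalization gave 19.1% of genes higher and 19.8% lower (members 21 and 11).

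With GSK-126 in SNU398, 6 of the 17 Cajal-body members (35.3%) and SNORD17 rose, a share of the Cajal-body members near that of all genes. The comparison called 8 members higher (30.0% of all genes) and 24 lower (22.4%). The level of SCARNA17 was 11.4 and 11.2 scaled RPKM with DPBS, 17.9 and 17.5 with decitabine, 31.7 and 39.1 with GSK-126 and 15.8 and 13.7 with the combination. Every treated library lay above DPBS and GSK-126 above all others, with a log2 change of 1.60 ± 0.09 (adjusted p = 1e-09, limma). SCARNA18 went from 18.3 and 21.5 to 51.2 and 62.5 (1.49 ± 0.10, adjusted p = 7e-09), whereas their host SNHG22 had a log2 change of 0.38 (adjusted p = 0.057). SNORD17 rose to 248 and 236 scaled RPKM (1.07 ± 0.07, adjusted p = 2.9e-09, limma), while its host SNX5 changed by -0.30. SNORA73B rose from 392 and 427 to 613 and 740 (0.72 ± 0.12, adjusted p = 0.00015). RN7SL1 and RN7SK stood at 1.97 and 1.59 of DPBS in the same libraries, and their part was not tested.

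SNORD6 fell with GSK-126 in SNU398. It went from 22 and 20 reads to 6 and 6 (-1.25 ± 0.34, adjusted p = 0.006, limma), and 10 of the 24 members called lower averaged at least 10 reads, beside 101 of all 282. Without the filter on low levels the total was 20 in place of 32, and under no scaling 20.6% of genes were higher and 33.2% lower (members 9 and 36).

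The combination in SNU398 called 20 members higher (28.9% of all genes) and 14 lower (18.4%), with 14 SNORD higher and 7 lower, 1 SNORA higher and 4 lower, and 5 SCARNA higher and 2 lower. Without DPBS replicate B, 14 were higher and 3 lower, 17 in all, and without the level filter 21. Quantile normalization gave 23.1% of genes higher and 23.9% lower (members 19 and 21). SNORD12C, from the non-coding host ZFAS1, fell from 95 and 94 reads to 31 and 42 (-1.04 ± 0.14, adjusted p = 1.9e-05, limma), with 74 and 57 after decitabine and 60 and 56 after GSK-126, and ZFAS1 changed by -0.63.

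Against decitabine the SNU398 combination called 1 member higher (12.5% of all genes) and 12 lower (8.07%). SNORD94, which guides methylation of U6 spliceosomal RNA, had 73 and 88 reads with decitabine and 29 and 32 with the combination (-1.12 ± 0.19, adjusted p = 0.00089, limma). The total of 13 was 5 without decitabine replicate A, 4 without decitabine replicate B, 7 without combination replicate B and 7 without the level filter. The SNU398 interaction called 12 members above the product (18.4% of all genes) and 10 below (22.8%). Under no scaling 27.6% of genes were above and 15.1% below (members 19 and 8), and without the level filter the total was 13. Abundant members called higher with each single drug were among those below the product: the interaction was -1.85 ± 0.13 for SCARNA17 (adjusted p = 2.4e-08, limma), -1.90 for SCARNA18 (adjusted p = 5.6e-08) and -1.33 ± 0.09 for SNORD17 (adjusted p = 3.2e-08).

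In SNU475, decitabine called 20 members higher (24.2% of all genes) and 15 lower (27.3%), 23 in all without the level filter. SNORD94 had 16 and 25 reads with DPBS, 41 and 44 with decitabine, 56 and 46 with GSK-126 and 17 and 22 with the combination. The single-drug libraries lay above both DPBS libraries and the combination overlapped them. The log2 changes were 1.0 ± 0.19 with decitabine (adjusted p = 0.00048, limma), 1.13 ± 0.19 with GSK-126 (adjusted p = 0.00018, limma) and 0.17 with the combination (adjusted p = 0.52). The host PTCD3, a mitochondrial ribosome factor, changed by -0.33 with GSK-126. A SNORD63 copy (ENSG00000222937) fell from 44 and 31 reads to 5 and 11 with decitabine (-2.0 ± 0.48, adjusted p = 0.0028).

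With GSK-126 in SNU475, 17 of the 91 H/ACA members were called higher, a share of 18.7% that lies below that of all genes. The comparison called 27 members higher (21.5% of all genes) and 16 lower (28.5%), or 9.57% and 5.67% of the members. The 17 SNORA had log2 changes of 0.56 to 1.85, and 4 SNORA were lower, beside 7 SNORD higher and 8 lower. Of the 46 SNORA averaging at least 10 reads, 14 (30.4%) were higher and 4 lower with a median of 0.35, beside -0.02 over all genes. Besides SNORA53, SNORA74B went from 23 and 29 reads to 78 and 72 (1.29 ± 0.23, adjusted p = 0.00023, limma), with 32 and 53 after decitabine and 23 and 31 after the combination. SNORA35, in an intron of LRCH2, went from 7 and 7 to 37 and 22 (1.55 ± 0.3, adjusted p = 0.00046, limma). A copy annotated as U3 (ENSG00000212195), the RNA that starts 18S precursor processing, fell from 81 and 88 to 37 and 40 (-1.1 ± 0.11, adjusted p = 9.1e-07).

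The SNU475 combination called 15 members higher (25.3% of all genes) and 24 lower (29.6%), with 4 SNORA higher and 11 lower. SNORD104 had 36 and 35 reads with DPBS, 54 and 72 with decitabine, 61 and 85 with GSK-126 and 62 and 69 with the combination, above DPBS in all treated libraries (1.09 ± 0.19 with the combination, adjusted p = 0.00016, limma). Its host SNHG25 rose by 1.11. SCARNA13 rose from 1034 and 1005 reads to 1333 and 1584 (0.76 ± 0.08, adjusted p = 1.1e-06, limma). SNORA47 fell from 23 and 22 to 8 and 7 (-1.05 ± 0.2, adjusted p = 0.00041).

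Against decitabine the SNU475 combination called 2 members higher (7.39% of all genes) and 5 lower (10.9%). The total of 7 was 4 without combination replicate A and 13 without combination replicate B. SNORD94 differed by -0.84 ± 0.19 (adjusted p = 0.0071), and -0.76 without combination replicate A, where the call was lost. The SNU475 interaction called 10 members above the product (19.7% of all genes) and 20 below (16.6%), and 13 of the 20 were SNORA. The interaction was -3.35 ± 0.51 for SNORA53 (adjusted p = 0.00014, limma), -1.96 ± 0.27 for SNORD94 (adjusted p = 5.7e-05, limma) and -1.67 ± 0.32 for SNORA74B (adjusted p = 0.00087, limma). SNORA37 had 95 and 89 reads with DPBS, 150 and 161 with GSK-126 and 41 and 58 with the combination, and an interaction of -1.40 ± 0.39.

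**Figure D4:**
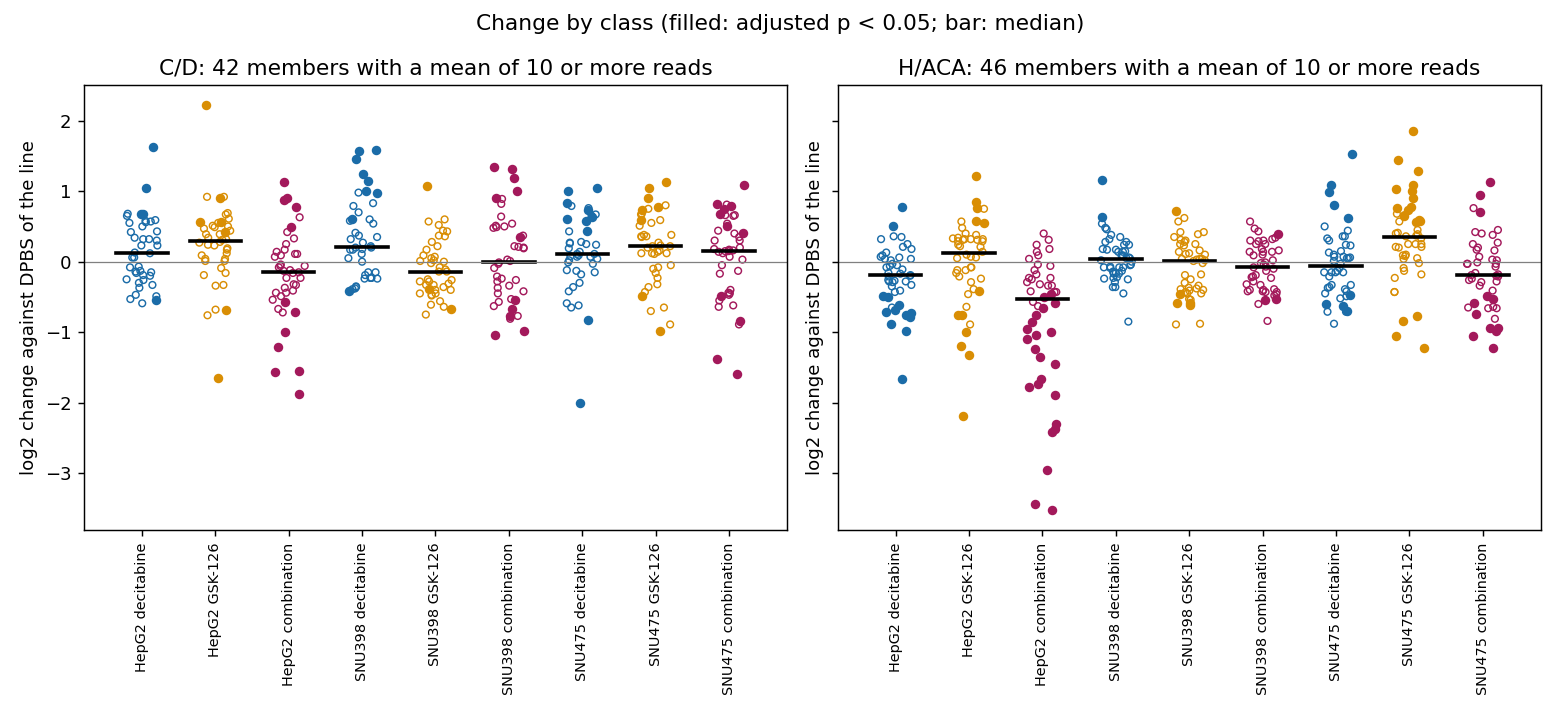
log2 changes against DPBS of the 42 C/D and 46 H/ACA members that averaged at least 10 reads, by line and treatment. Filled points have an adjusted p below 0.05, open points were not called, and bars are medians. The H/ACA median is -0.53 in HepG2 with the combination and 0.35 in SNU475 with GSK-126.

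The effects of each drug were also compared between lines. The decitabine effect differed between HepG2 and SNU398 in 58 members (44.0% of all genes), between HepG2 and SNU475 in 78 (57.9%) and between SNU398 and SNU475 in 29 (49.8%). The GSK-126 effect differed in 34 (52.3%), 40 (56.5%) and 41 (56.0%) members in the same order of lines, and the combination effect in 60 (58.1%), 68 (64.6%) and 39 (56.5%). Each count is a smaller share of the 282 members, 10.3% to 27.7%, than of all genes. The members include 24 that reached the threshold in HepG2 only, 8 of them in HepG2 decitabine only. These 8 had to be higher there, and the chromosome 14 copies passed mostly through that group. The counts for the decitabine effect with HepG2 are therefore partly set by the choice of members. SNORA53 gave the largest difference of a member averaging at least 10 reads in 5 of the 9 contrasts, up to -4.04 ± 0.51 for GSK-126 in HepG2 minus SNU475 (adjusted p = 8.5e-06, limma).

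Hosts were tested for 210 members, in 135 distinct genes, so that members of a host are not independent. Of 48 members with a tested host called lower in the HepG2 combination, the host was lower for 33, higher for 6 and not called for 9. Of all genes 25.9% were called lower there and 40.6% higher. Hosts of members that were not called are not set beside these counts. The median host change was -0.22. For the 25 SNORA members among them the hosts were lower for 15, higher for 4 and not called for 6. Of 21 members called higher, the host was higher for 16, lower for 3 and not called for 2. Most of these 21 were chromosome 14 copies, which share hosts. Among the 5 SNORD outside both clusters called higher, the host was higher for 2, lower for 2 and not called for 1. Across the 210 members, as a description, Pearson's r between member and host change was 0.58 in the HepG2 combination, 0.24 over the 76 SNORA and 0.26 over the 69 SNORD outside both clusters. In HepG2 with decitabine it was 0.74 over all, 0.32 over SNORA and 0.24 over the 69 SNORD outside both clusters. It was 0.13 in SNU475 with GSK-126, where the hosts of 16 SNORA called higher were higher for 8, lower for 1 and not called for 7. Of all genes 21.5% were called higher in that comparison. A host and its intronic snoRNA share a transcript, so these values are not independent measurements.

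**Figure D5:**
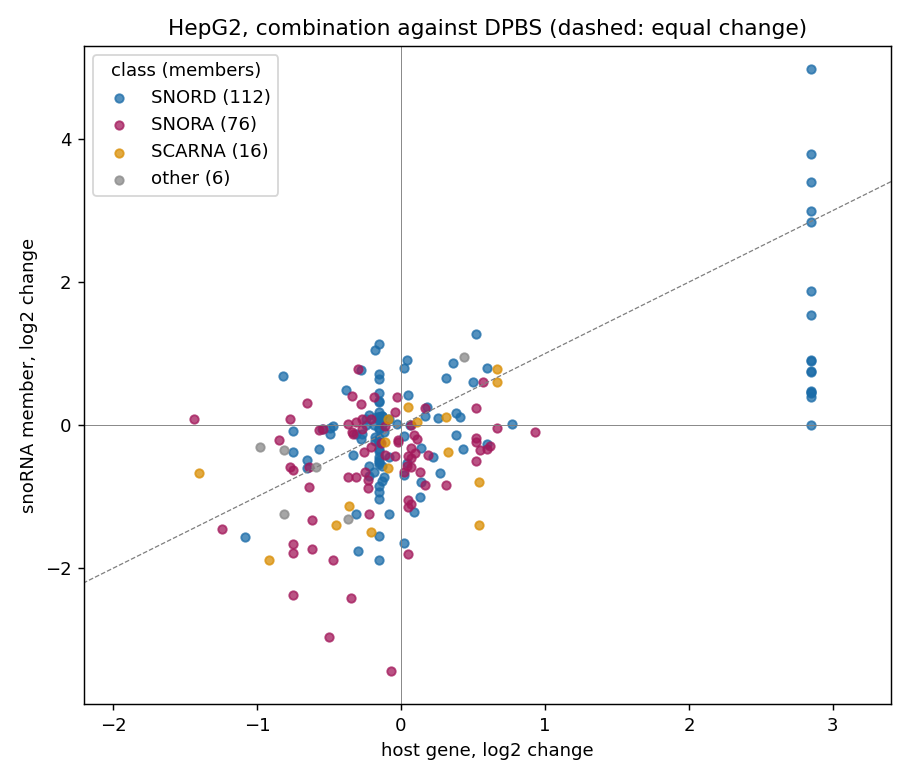
log2 change of each of 210 members (y axis) against that of its host gene (x axis) in HepG2, combination against DPBS. Points are members by class (112 SNORD, 76 SNORA, 16 SCARNA and 6 others), and the dashed line marks equal change. Members in MEG8 stand at a host change of 2.85, and r over all points is 0.58.

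The protein partners of snoRNAs were given from a list of genes. Of the 4 core C/D proteins, FBL (fibrillarin, the methyltransferase), NOP56, NOP58 and NHP2L1, HepG2 called 1 higher and 3 lower with decitabine, 1 and 2 with GSK-126 and 0 and 4 with the combination. SNU398 called 0 and 4, 0 and 3, and 0 and 4, and SNU475 4 and 0, 3 and 0, and 4 and 0. FBL changed by -0.30 in HepG2, -0.43 in SNU398 and 0.61 in SNU475 with the combination, each at a standard error of 0.04. The 4 core H/ACA proteins, DKC1 (dyskerin, the pseudouridine synthase), NHP2, NOP10 and GAR1, were called 0 higher and 4 lower, 1 and 2, and 0 and 3 in HepG2. They were called 0 and 2, 1 and 2, and 0 and 3 in SNU398, and 4 and 0, 2 and 1, and 4 and 0 in SNU475. GAR1 fell by 0.65 ± 0.05 on the log2 scale in HepG2 with the combination (adjusted p = 2.7e-08, limma), from 5.13 and 5.5 scaled RPKM to 3.12 and 3.29, and DKC1 by 0.11 ± 0.04. In SNU475 DKC1 rose by 0.74.

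Of 15 assembly and transport factors, 3 were higher and 6 lower in HepG2 with the combination, 2 and 7 in SNU398, and 7 and 1 in SNU475. Of 19 genes of ribosomal RNA processing and its polymerase, 9 were higher and 8 lower in HepG2, 3 and 10 in SNU398, and 17 and 1 in SNU475. Of 25 tested host genes that carry several snoRNAs, 11 were higher and 11 lower in HepG2, 7 and 15 in SNU398, and 15 and 2 in SNU475. With the combination 40.6% of all genes were higher and 25.9% lower in HepG2, 28.9% and 18.4% in SNU398, and 25.3% and 29.6% in SNU475. The lists share genes, so their counts are not independent. NOP56 is both a core C/D protein and a listed host, and NCL, WDR43 and TAF1D are both processing genes and listed hosts. These lists were chosen with results of these data known, so the counts are a description to be set beside the shares of all genes.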

How the data were processed

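Total RNA depleted of ribosomal RNA was sequenced single-end over 75 bases (KAPA stranded RiboErase), per the labels' protocols. The authors deposited unscaled RPKM for 63677 genes in 24 libraries. The submitters' processing notes name HISAT2, featureCounts and hg19, but which versions and annotation were used, whether strand was counted and what became of multiply mapped reads is not given in the sources used here. Whole reads were recovered from the RPKM steps with a tolerance of 0.15 reads.

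Libraries were scaled by median ratios over 8211 genes (factors 0.847 to 1.158). The 19377 genes that reached 0.5 RPKM in 2 or more libraries were fitted with limma 3.58.1 in R 4.3.3 on log2(scaled RPKM + 0.5), with 12 group means, 12 residual degrees of freedom, a mean-variance trend, robust variances and Benjamini-Hochberg adjustment over all of them. The fit was tested on simulated data. The 9 differences of effects between lines were added after the data were seen. Sequences and placements (GENCODE v29) were computed in Python 3.11.15.

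The rule for named members took the 10 with the highest mean RPKM, the precursor-processing snoRNAs and the copies of both imprinted clusters. Per comparison it added the 5 highest and 5 lowest called members with at least 10 reads on average in the higher group and no overlap of replicates. The text gives a selection of these and further members chosen after their values were seen. The members and lists were chosen with earlier results of these data known. Alternatives were pseudocounts of 0.1 and 1, no scaling, quantile normalization, no level filter, voom on the recovered reads, the replicate letter as a block, each line fitted alone, and leaving out each library.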

Additional observations from a re-analysis of the deposited data

Results flagged for a closer look

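Effects of a drug that differed between lines by a test of the difference itself are given here, with the member of largest difference among those averaging at least 10 reads. The decitabine effect differed in 58 members between HepG2 and SNU398, in 78 between HepG2 and SNU475 and in 29 between SNU398 and SNU475. That is 20.6%, 27.7% and 10.3% of the members, beside 44.0%, 57.9% and 49.8% of all genes. Members that passed the level filter only in HepG2 decitabine are among those tested. For HepG2 minus SNU398 the largest was SNORD116-27 at -1.8 ± 0.26 (adjusted p = 6.7e-05, limma), a copy that rose in SNU398. For HepG2 minus SNU475 it was SNORA53 at -2.51 ± 0.51 (adjusted p = 0.00072, limma). For SNU398 minus SNU475 it was SNORD116-7 at 2.16 ± 0.48 (adjusted p = 0.0016, limma).

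The GSK-126 effect differed in 34, 40 and 41 members in the same order of lines. That is 12.1%, 14.2% and 14.5% of the members, beside 52.3%, 56.5% and 56.0% of all genes. SNORA53 was largest for HepG2 minus SNU398 at -2.33 ± 0.51 (adjusted p = 0.0015, limma) and for HepG2 minus SNU475 at -4.04 ± 0.51 (adjusted p = 8.5e-06, limma). The SNORA66 copy ENSG00000207523 was largest for SNU398 minus SNU475 at -1.81 ± 0.44 (adjusted p = 0.0024, limma). In SNU475 with GSK-126 this copy had a log2 change of 1.44, while another SNORA66 copy, ENSG00000251795, went the other way at -1.06.

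The combination effect differed in 60, 68 and 39 members, or 21.3%, 24.1% and 13.8% of them, beside 58.1%, 64.6% and 56.5% of all genes. SNORA53 was largest for HepG2 minus SNU398 at -3.33 ± 0.51 (adjusted p = 5.8e-05, limma) and for HepG2 minus SNU475 at -3.46 ± 0.51 (adjusted p = 3e-05, limma). SNORD116-2 was largest for SNU398 minus SNU475 at 1.78 ± 0.55 (adjusted p = 0.012, limma). Harvest on day 21 in SNU475 and on day 14 in the other lines cannot be told apart from the line.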

How the results depend on the processing

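Of 15 counts of called members, 9 stayed within 1.5 times in all 8 alternatives and 8 left-out libraries. Without the level filter the SNU398 totals were 20 with GSK-126 (32 with it), 21 with the combination (34), 7 for the combination against decitabine (13) and 13 for the interaction (22), and the SNU475 decitabine total was 23 (35). Fitting each line alone gave 33 for the SNU398 interaction. Leaving out a library gave, in the order decitabine, GSK-126 and combination, 50 to 64, 29 to 41 and 64 to 82 in HepG2, 18 to 29, 22 to 35 and 17 to 41 in SNU398, and 27 to 35, 29 to 44 and 28 to 40 in SNU475. It gave 61 to 78, 4 to 16 and 4 to 13 for the combination against decitabine in HepG2, SNU398 and SNU475, and 59 to 67, 16 to 30 and 24 to 33 for the interactions. With the replicate letter as a block the counts against DPBS were 66, 41 and 82 in HepG2, 28, 31 and 34 in SNU398, and 33, 44 and 41 in SNU475, and no count in any comparison moved by over 1.5 times. Deviations from the group means of libraries sharing a letter correlated at -0.54 to 0.64 over 66 pairs of groups (median -0.04), with 22 of the 66 over 0.1 and 8 of 18 within a line. The labels give no pairing by letter, and the letter was therefore not used as a block.

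Of 157 values of single members examined, 104 kept their direction and their side of the threshold everywhere, and 53 did not in at least 1 setting, 13 of them with voom. SNORD17 in the HepG2 combination, not called, changed sign under quantile normalization (0.40). With voom the median of all genes shifted by 0.12 in HepG2 with decitabine, 0.12 with GSK-126 and 0.17 with the combination. The causes were not tested. The HepG2 ratios of H/ACA to C/D reads were 1.06, 0.706, 0.776 and 0.488 over members with at least 10 reads in every library, beside 1.06, 0.707, 0.788 and 0.493. With 2 libraries a group, 143 members below a mean of 5 reads and near-identical copies, small changes of members with few reads were not detectable at this depth.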
